A study of Mus musculus with 8 samples.

Results

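The histone genes of the replication-dependent clusters were followed in sorted mouse skin stem cells. Members were chosen by gene symbol, as every H2ac, H2bc, H3c, H4c, H1f or Hist1h to Hist4h symbol that was no pseudogene by its name. The rule found 64 of the 24755 genes listed in either count table, and 58 of the 64 were listed in both. By class there were 7 linker histone H1 genes, 18 H2A, 15 H2B, 12 H3 and 12 H4 genes. The family itself was selected on differences between Msx2-KO and WT libraries of this same data set. Those differences are therefore given as a description of the libraries, and the shares of members called support nothing.

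Nucleosomes wrap DNA around an octamer of H2A, H2B, H3 and H4, and H1 binds the linker DNA between them. The clustered histone genes are transcribed mainly in S phase, when new chromatin is assembled behind the replication fork. Their mRNAs usually have no introns and no poly(A) tail: they end just after a short stem-loop, which is bound by the stem-loop binding protein Slbp. Replacement histones such as H3f3a, H3f3b, H2az1 and H1f0 come from genes outside S phase control and have polyadenylated mRNAs. In skin, stem cells of the resting hair follicle bulge divide rarely, and basal cells of the epidermis between follicles divide through adult life.

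Each group comprised 2 bulk RNA-seq libraries of dorsal skin cells. Hair follicle stem cells (HFSCs) had been sorted as CD34+CD49f+Sca-1- cells and epidermal stem cells (EpdSCs) as CD34-CD49f+Sca-1+ cells. WT mice were C57BL/6J, and the Msx2-KO mice were homozygous for a germline allele of the homeobox gene Msx2 with a pMC1-neo cassette placed upstream of exon 2. The labels place every sample in telogen, the resting phase of the hair cycle, and name the EpdSCs epidermal progenitor cells. By the labels the WT mice of the HFSC libraries were 2 months old and the mice of the 3 other groups 6 months old, so genotype and age cannot be told apart in HFSCs. The sources used here do not say whether the 2 libraries of a group came from separate animals, so the errors below measure the spread between libraries, which may be technical.

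Library totals ranged from 3132974 to 11016659 estimated counts in HFSCs and from about 14216500 to 24694400 normalized counts in EpdSCs. Mitochondrial and ribosomal RNA genes took 11.2% and 41.4% of the counts in the WT HFSC libraries and 57.0% and 62.5% in the HFSC libraries labelled Msx2-KO, and 26.9% and 19.1% against 5.16% and 9.61% in EpdSCs. Sums are therefore given as CPM outside these genes, that is, as a share of the counts of all other genes, scaled alike in every library. Msx2 did not check the labels: it had 43.3 and 13.8 normalized counts in WT HFSCs against 26.7 and 23.4 in the libraries labelled Msx2-KO, and 58.5 and 85.4 against 150.3 and 22.2 normalized counts in EpdSCs. The labels number the 2 HFSC libraries labelled Msx2-KO as Ch-876 and Ch-877 and the WT EpdSC libraries as Ch-874 and Ch-875, while the EpdSC libraries labelled Msx2-KO are Ch-814 and Ch-815 and the WT HFSC libraries YC-631 and YC-673. What these numbers stand for is not given in the sources used here.

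Most members lie in 2 clusters of GRCm38. The cluster on chromosome 13 held 51 members between bases 21715763 and 23934851, and the cluster on chromosome 3 held 10 between bases 96219865 and 96270132. H1f0 (chromosome 15, bases 79028450 to 79030504) and H1f10 (chromosome 6) stand alone and are known to be expressed independently of replication, and Hist1h2al, annotated as a processed pseudogene, lies on chromosome 13 outside the cluster. A single exon was annotated for 60 of the 64 members in every transcript (GENCODE M21).

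The stem-loop at the end of the mRNA is the feature that sets these transcripts apart from polyadenylated ones, so it was searched for in the annotated transcripts. The search used GGNNCTTNTNANNNCC on the transcript strand, with the first 6 and last 6 bases able to pair. It was found in 41 of the 49 members with at least 16 bases of annotated 3′ UTR (83.7%), in none of the 15 members without such a UTR, and in 21 of 21838 other protein-coding genes (0.0962%). A model without a UTR cannot show the element, so the 15 genes say nothing about it. Among the 8 members with a UTR and no match were H1f0, H1f10, H2bc21 and H2bc4. Examples from each class are printed 5′ to 3′ as DNA letters from GENCODE M21, with the stem-loop in capitals and the flanking bases in lower case.
H1f2: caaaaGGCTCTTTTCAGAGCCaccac
H1f4: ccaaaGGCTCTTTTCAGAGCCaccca
H2ac18: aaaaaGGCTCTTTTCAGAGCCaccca
H2ac20: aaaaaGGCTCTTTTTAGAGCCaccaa
H2bc3: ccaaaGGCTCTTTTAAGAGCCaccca
H3c15: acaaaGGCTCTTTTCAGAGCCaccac
H4c4: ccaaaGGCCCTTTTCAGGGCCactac
H4c14: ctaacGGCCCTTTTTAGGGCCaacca
The same 16 letters as in H2ac18 stood in 23 of the 41 members, across H1, H2A, H2B and H3. None of the 11 H4 stem-loops had them: 6 H4 genes shared the letters of H4c4, which differ in the stem. Annotated sequence went on past the stem-loop in every gene, by 3 to 4884 bases with a median of 57, and by over 100 bases in 19 genes.

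Promoters were looked at because many members moved together. RefSeq windows of 250 bases before to 50 bases after the start (GRCm38.p6) could be matched to 57 members. CCAAT was present on either strand in 82.5% of them against 37.9% of all 27025 promoters, and in every H2A, H2B and H3 promoter matched, but in 3 of 11 H4 promoters. TATAAA was found in 56.1% of members against 14.2% of all promoters. ATTTGCAT, the octamer known from H2B promoters, was found in 19.3% against 1.75%, in 5 of 13 H2B and 6 of 16 H2A promoters and in none of the other classes. Some windows of neighbouring genes overlap: H2ac8 and H2bc8, and H2ac12 and H2bc12, each share the same octamer, which counts for both classes. Some matches lie after the RefSeq start, such as TATAAA at base 12 in H2ac18 and CCAAT at base 15 in H3c15. For each class the matched cluster gene with the highest mean in EpdSCs is shown from 100 bases before the RefSeq start to 20 bases from it, with matches of the 3 motifs, on either strand, in capitals. The windows are chr13:23738707-23738826 (plus strand) for H1f2, chr3:96245397-96245516 (plus) for H2ac18, chr13:23746634-23746753 (plus) for H2bc3, chr3:96239108-96239227 (minus) for H3c15 and chr13:23581468-23581587 (plus) for H4c4.
H1f2: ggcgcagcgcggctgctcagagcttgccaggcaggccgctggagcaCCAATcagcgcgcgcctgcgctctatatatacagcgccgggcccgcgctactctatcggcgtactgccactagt
H2ac18: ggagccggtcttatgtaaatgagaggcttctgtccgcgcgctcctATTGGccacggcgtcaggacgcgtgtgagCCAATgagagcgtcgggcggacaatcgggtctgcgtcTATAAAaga
H2bc3: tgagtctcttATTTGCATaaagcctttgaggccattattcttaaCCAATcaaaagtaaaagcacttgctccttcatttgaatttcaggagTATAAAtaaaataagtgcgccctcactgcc
H3c15: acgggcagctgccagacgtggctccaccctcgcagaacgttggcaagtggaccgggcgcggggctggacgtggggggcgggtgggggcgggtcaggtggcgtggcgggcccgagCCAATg
H4c4: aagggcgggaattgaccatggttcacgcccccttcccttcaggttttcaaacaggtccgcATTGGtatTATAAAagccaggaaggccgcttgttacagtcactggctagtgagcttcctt
A match of letters is a description of the window, and binding was not measured.

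Summed over the cluster genes, histone RNA was high in HFSCs labelled Msx2-KO and in WT EpdSCs, and low in the other groups. Without H1f0 and H1f10, the members made up 511 and 447 CPM in WT HFSCs against 3263 and 2602 in Msx2-KO HFSCs, which is 479 ± 44.9 against 2932 ± 467 (SD, n = 2) and 6.12-fold higher. In EpdSCs they made up 2771 and 2380 CPM in WT against 123 and 112 in Msx2-KO libraries, 2575 ± 276 against 117 ± 7.605 (SD, n = 2) and 21.9-fold lower in Msx2-KO. The groups did not overlap in either cell type, and the order of the genotypes was opposite. As a share of all counts, mitochondrial and ribosomal RNA included, the HFSC ratio was 3.32. The 4 high libraries were those numbered Ch-874 to Ch-877 and the 4 low ones those numbered Ch-814, Ch-815, YC-631 and YC-673, so genotype within each cell type and this set of numbers cannot be told apart. The HFSC and EpdSC tables were normalized separately and the EpdSC table lists fewer genes, so levels set across the cell types were not tested. In bulk RNA, fewer cells that express these genes and less of their RNA per cell cannot be told apart.

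The 4 core histones and the cluster H1 genes showed the same pattern. For H2A, which pairs with H2B in the octamer, the sums were 62.6 and 50.2 CPM in WT HFSCs, 838 and 704 in Msx2-KO HFSCs, 1015 and 949 in WT EpdSCs, and 0 and 13.2 in Msx2-KO EpdSCs. H3, whose tail carries many of the known chromatin marks, had 24.9 and 19.5, then 348 and 365, then 232 and 155, and 8.43 and 1.54 CPM in the same order. The ratios of the group means in HFSCs, Msx2-KO over WT, were 4.53 for the cluster H1 genes, 13.7 for H2A, 7.27 for H2B, 16.1 for H3 and 2.82 for H4. As a share of all counts the HFSC ratios were 2.46, 7.34, 3.93, 8.55 and 1.56 in the same order. In EpdSCs, WT over Msx2-KO, they were 11.2 for H1, 149 for H2A, 13.3 for H2B, 38.7 for H3 and 60.6 for H4. H1f0 and H1f10 together went the other way in EpdSCs, from 220.995 and 250.5 CPM in WT to 3190 and 678 in Msx2-KO libraries, and stood at 116 and 117 against 161 and 166 in HFSCs, where as a share of all counts the order turned, with a ratio of 0.766. H1f0 alone made up 96.3% and 85.7% of the summed members in the Msx2-KO EpdSC libraries, so a sum over all 62 members listed there hides the low level of the others.

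**Figure D1:**
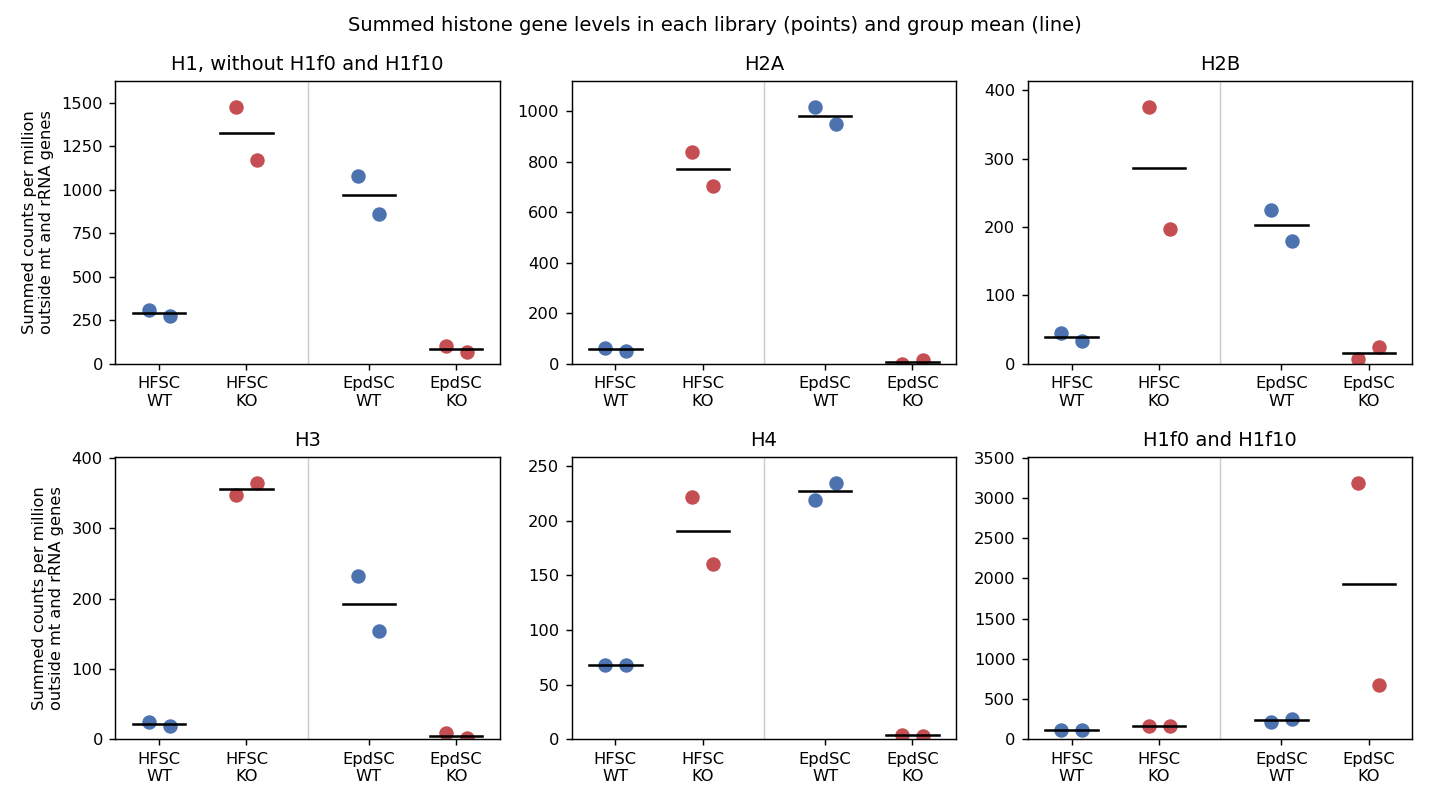
Summed level of each histone class per library, in CPM outside mitochondrial and ribosomal RNA genes (y axis, linear and starting at 0; points are libraries, blue WT and red Msx2-KO, and the line is the mean of the 2). The 5 panels of cluster genes are high in Msx2-KO HFSCs and WT EpdSCs, for H2A between 704 and 1015 against at most 62.6 elsewhere, while H1f0 and H1f10 are highest in Msx2-KO EpdSCs, at 3190 and 678.

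In HFSCs, 40 of the 60 listed members passed the filter on low counts and were tested among 14422 genes. The filter asks for enough counts in as few as 2 libraries, so a member could pass through its high group alone. With edgeR's quasi-likelihood test and Benjamini-Hochberg adjustment, 0 members were called higher (background 0.0%) and 0 lower (background 0.0%) at an adjusted p under 0.05 and a fold over 2, and the smallest adjusted p was 0.143 among members and among all genes. At an unadjusted p under 0.05, 17 of 40 were higher (background 5.3%) and 2 lower (background 12.8%). DESeq2 called 15 higher (background 2.29%) and 0 lower (background 2.5%), and limma-trend 5 higher (background 1.1%) and 2 lower (background 8.66%). Both Msx2-KO libraries exceeded both WT libraries in 26 of the 40 (background 17.5%) and lay below both in 2 (background 33.5%), and in 12 the groups overlapped. Over all 60 listed members, tested or not, 29 had both Msx2-KO libraries above and 7 had both below. For that count the share of all listed genes is not given here. The median fitted log2 fold change was 2.65 over the members and -0.14 over all genes tested. The edgeR fits depended on single libraries: the log2 fold change of H2ac18 was 2.93 without WT replicate 1 and 5.98 without WT replicate 2. Leaving out 1 library leaves 1 in its group, so calls from those fits are not given.

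Of the H1 genes in HFSCs, H1f2, H1f3 and H1f4, linker histones of the chromosome 13 cluster, had close replicates. H1f2 had 489 and 469 normalized counts in WT against 1986 and 1691 in Msx2-KO libraries, a fitted log2 fold change of 1.94 (SE 0.23). For H1f4 the normalized counts were 353 and 372 in WT against 1758 and 1581 in Msx2-KO libraries (log2 fold change 2.20, SE 0.22). H1f3 had 114 and 131 against 509.9 and 452 normalized counts (log2 fold change 1.97, SE 0.29). Summed, the 3 were 4.14-fold higher in the Msx2-KO libraries, and for each the gap between genotypes was wider than that between replicates. H1f5 had 10.6 and 19.8 normalized counts in WT against 413 and 125 in Msx2-KO libraries, with replicates further apart. Groups overlapped for H1f1, at 5.72 and 11.9 against 0 and 100, and for H1f10, at 15.5 and 25.7 against 23.3 and 103 normalized counts. H1f0, the replacement linker histone of resting and differentiated cells, had 349.6 and 399.6 normalized counts in WT against 485 and 456 in Msx2-KO libraries (log2 fold change 0.33, SE 0.24), which turned to -0.49 when library totals replaced TMM, where the median of all genes was -1.002.

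H2ac18, the H2A gene that heads this family here, had 8.99 and 79.1 normalized counts in WT HFSCs and 589 and 633 in Msx2-KO libraries (log2 fold change 3.86, SE 1.10). Its near-copy H2ac19, on the other strand of the chromosome 3 cluster, had 27.0 and 0 in WT against 234 and 682 in Msx2-KO libraries. Of the 50-base stretches of H2ac18, 89.2% also occur in H2ac19, and all of those of H2ac19 occur in H2ac18. Reads could thus be split between the copies, and their WT values point in opposite orders. Summed, the pair had 35.9 and 79.1 normalized counts in WT against 823 and 1314 in Msx2-KO libraries. H2ac20, in the same cluster, did not follow: it had 80.1 and 33.6 in WT against 52.7 and 67.5 in Msx2-KO libraries, and the groups overlapped. On chromosome 13, H2ac15 had 4.90 and 0 normalized counts in WT against 309 and 252 in Msx2-KO libraries, and H2ac13 had 0 and 9.89 against 409 and 135. Hist1h2ap had 6.53 and 5.93 against 167 and 353, and shares 93.1% of its 50-base stretches with other transcripts. In all, 8 of the 10 H2A genes tested had both Msx2-KO libraries above both WT libraries, against 17.5% of all genes tested.

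Among the H2B genes, 6 of 8 tested in HFSCs had both Msx2-KO libraries higher (background 17.5%) and none of the 8 had both lower (background 33.5%). The filter left out H2bc13 and H2bc14, which had 0 normalized counts in both Msx2-KO libraries and low counts in both WT libraries. Replicates were far apart in several of them: Hist1h2br had 6.53 and 1.98 normalized counts in WT against 507 and 10.4 in Msx2-KO libraries, and H2bc8 had 14.7 and 13.8 against 253 and 27.3. H2bc4, whose annotated mRNA holds no stem-loop match, had 10.6 and 27.7 against 119 and 93.5. H2bc21, known to be made also from polyadenylated mRNA in cells that no longer divide, did not pass the filter and had 7.35 and 7.91 normalized counts in WT and 0 in both Msx2-KO libraries.

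H3c15, one of the H3 genes of the chromosome 3 cluster, was among the largest differences in HFSCs. It had 2.45 and 3.96 normalized counts in WT against 599.9 and 294 in Msx2-KO libraries (log2 fold change 7.16, SE 0.69). H3c13, its neighbour, had 30.2 and 35.6 against 151 and 42.9. Of the 50-base stretches of H3c13, 79.7% also occur in the member H3c14, and all occur in the annotated transcript of Gm20628. On chromosome 13, H3c2 had 0 and 7.91 against 59.3 and 453 normalized counts. Both Msx2-KO libraries were higher in 5 of the 7 H3 genes tested (background 17.5%).

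H4 had the smallest ratio of the 5 classes in HFSCs. Of the 8 H4 genes tested in HFSCs, 2 had both Msx2-KO libraries above WT (background 17.5%) and 2 had both below it (background 33.5%), which is near those shares. H4c4 had 69.4 and 129 normalized counts in WT against 207 and 183 in Msx2-KO libraries (log2 fold change 0.99, SE 0.52). Hist1h4n, with the largest fitted log2 fold change of any member (7.73, SE 1.43), had 0.817 and 0 in WT against 197 and 79.2 in Msx2-KO libraries. It rested on 1 count in WT, and the ratio of summed counts was 272 with an exact 95% counting interval of 48.5 to 10770, which covers counting error only. H4c2 had 13.9 and 15.8 normalized counts in WT and 0 in both Msx2-KO libraries, which is at least 5.04-fold lower against a floor of 3 counts per library, and H4c3 had 11.4 and 15.8 against 0 and 0, at least 4.62-fold lower.

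Spread between replicates set how far single members could be read in HFSCs. Among the 34 members whose mean reached 50 normalized counts in the Msx2-KO libraries, the 2 replicates differed by a median of 1.57 on the log2(value + 1) scale, and 23 differed by more than 1. The median gap was 0.34 in the 13 members that share under 40% of their 50-base stretches with other transcripts and 1.59 in the 21 that share more. The largest gap, 7.21, was in H3c4, which shares 24.8%. H1f2, H1f3 and H1f4, abundant and with close replicates, share 8.54%, 2.25% and 32%, so level and sharing cannot be told apart here. In WT EpdSCs the 57 members at that level had a median gap of 0.44.

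**Figure D2:**
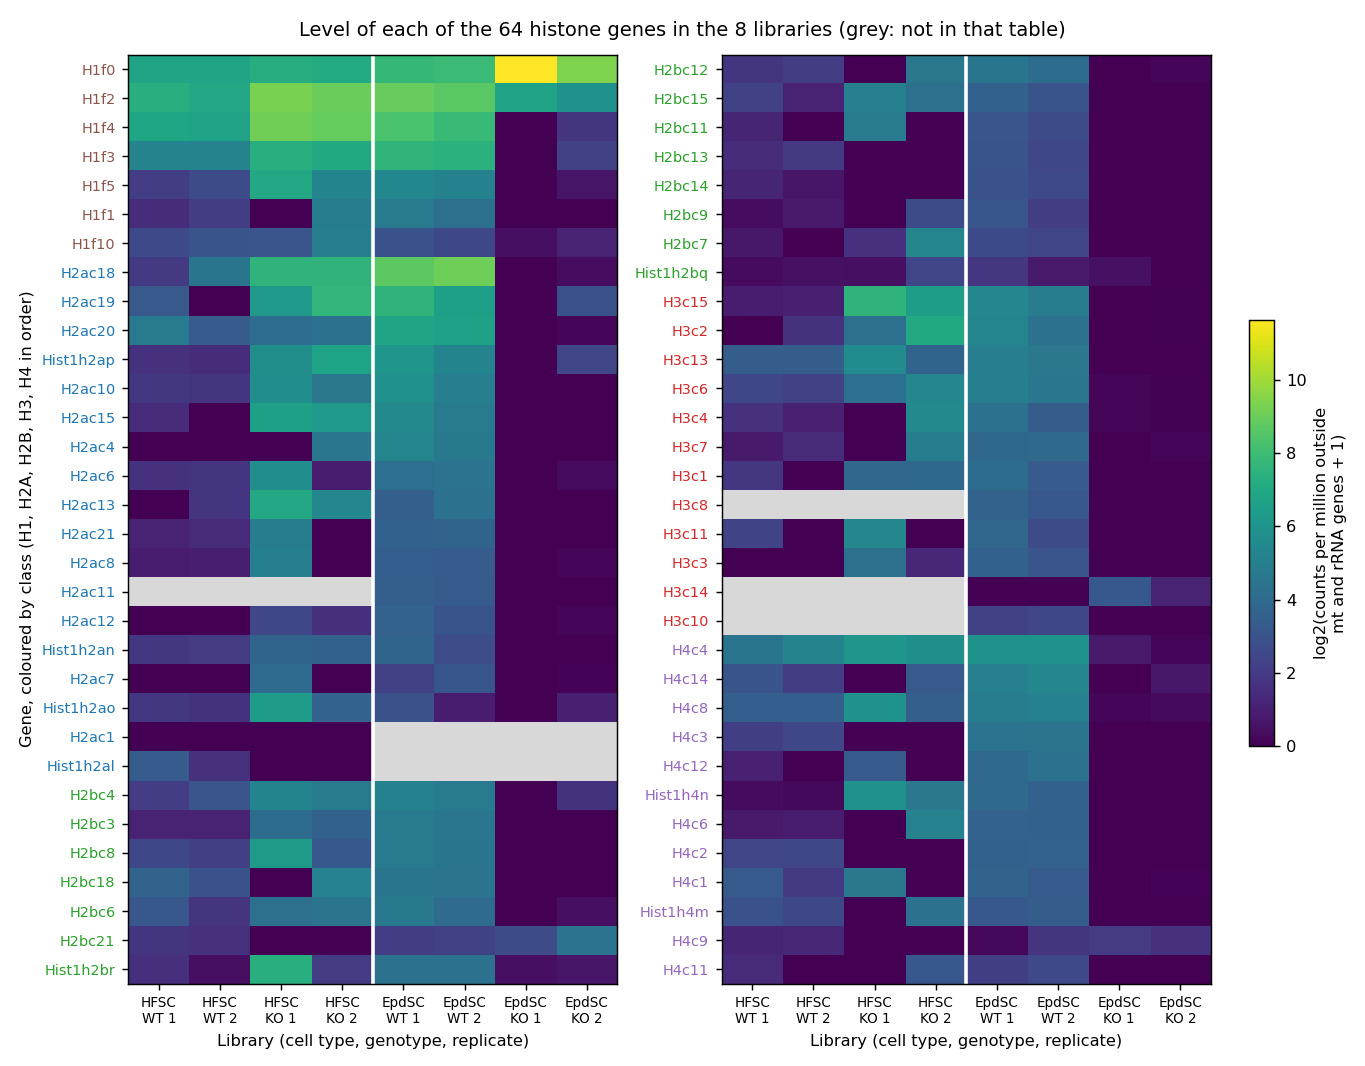
Level of each of the 64 genes (rows, ordered by class and by mean in EpdSCs) in the 8 libraries (columns), as log2 of CPM outside mitochondrial and ribosomal RNA genes plus 1; grey cells are genes absent from that table. The 2 WT EpdSC columns are bright for nearly every gene and the 2 Msx2-KO EpdSC columns dark except for H1f0, H1f2 and, more faintly, H2bc21 and a few others, while the Msx2-KO HFSC columns are patchy, with single genes bright in 1 replicate and at 0 in the other.

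In EpdSCs all 62 listed members were tested with limma on log2(value + 1), among 16231 genes. At an adjusted p under 0.05 and a fold over 2, 48 members were called lower in Msx2-KO libraries (background 7.78%) and 0 higher (background 1.57%). Both Msx2-KO libraries lay below both WT libraries in 56 of 62 (background 44.5%) and above both in 4 (background 27.8%). The median difference was -6.76 over the members and -0.64 over all genes, and -5.20 over the members once every value under 3 counts was set to 3 counts. Differences of single members could depend on single libraries: that of H1f4 was -11.69 without Msx2-KO replicate 2 and -6.66 without Msx2-KO replicate 1. Leaving out 1 library leaves 1 in its group, so calls from such fits are not given for EpdSCs either. Values were listed at 0 for 49 members in Msx2-KO replicate 1 and for 19 in replicate 2, and all 19 were at 0 in both. In WT, 41 members had over 100 normalized counts in both libraries. In the Msx2-KO libraries only H1f0, H1f2 and H2bc21 did.

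H2ac18 showed the largest difference of any member in EpdSCs. It had 5009 and 6448 normalized counts in WT against 0 and 3.91 in Msx2-KO libraries (difference -11.33, SE 0.96). H2ac19 had 2253 and 1116 in WT against 0 and 85.2, and the pair summed to 7262 and 7563 against 0 and 89.1. H2ac20 followed here, at 1337 and 1197 in WT against 0 and 1.35 (difference -9.69, SE 0.64), whereas its groups overlapped in HFSCs. H2ac10 and H2ac15, both listed at 0 in both Msx2-KO libraries, had 690.0 and 364, and 531 and 305, normalized counts in WT. H2ac4 had 461 and 301 against 0 and less than a count. Hist1h2ap had 805 and 442 in WT against 0 and 57.0, and Hist1h2ao, which shares its sequence, was the single H2A gene whose groups overlapped, at 76.6 and 10.9 against 0 and 13.6. Of 16 H2A genes, 13 were called lower (background 7.78%).

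Among the cluster H1 genes, H1f2 alone kept over 100 normalized counts in both Msx2-KO EpdSC libraries. H1f2 had 5870.0 and 4815 normalized counts in WT against 2435 and 807 in Msx2-KO libraries (difference -1.92, SE 0.74), the highest value of any stem-loop gene there. H1f4 had 3926 and 2766 in WT against 0 and 31.7 (difference -9.17, SE 1.89), so this gene was listed at 0 in the library in which H1f2 had 2435. H1f3 had 2374 and 2036 against 0 and 49.9, and H1f5 had 506 and 403 against 0 and 7.41. H1f1 had 322 and 221.9 in WT and was listed at 0 in both Msx2-KO libraries. H1f10, replication independent like H1f0, was low in both, with 80.2 and 56.9 against 8.91 and 16.1. H1f0 had 2581 and 2918 normalized counts in WT against 74711 and 8700.0 in Msx2-KO libraries (difference 3.22, SE 1.22), with a gap between the 2 Msx2-KO libraries larger than that between the genotypes' nearest libraries. Among the 7 H1 genes 2 were called lower (background 7.78%), H1f1 and H1f5.

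The H2B, H3 and H4 genes were near 0 in Msx2-KO EpdSCs with few exceptions, and 12 of 15, 11 of 12 and 10 of 12 were called lower (background 7.78%). H2bc3, which had 313 and 270 normalized counts in WT, and H3c13, which had 367 and 284, were listed at 0 in both Msx2-KO libraries. For H2bc8 the values were 312 and 264 in WT, and for H2bc18 they were 267 and 254, with 0 and far less than a count in the Msx2-KO libraries. H2bc18 shares all of its 50-base stretches with the annotated transcript of Gm20628 and none with another member. H3c15 had 498 and 339.5 in WT against 0 and 0.674 (difference -8.32, SE 0.57). Among H4 genes, H4c4 had 719 and 703 against 19.1 and 2.02 (difference -6.51, SE 1.09). H4c14 had 396 and 484 against 0 and 8.76, and H4c3 and H4c12, with 248 and 255 and with 177 and 234 in WT, had 0 and less than a count in Msx2-KO libraries. Hist1h4n had 181 and 132 in WT and was listed at 0 in both Msx2-KO libraries.

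Besides H1f0, 3 members had both Msx2-KO EpdSC libraries above both WT libraries. H2bc21 had 40.1 and 46.5 normalized counts in WT against 126 and 266 in Msx2-KO libraries (difference 2.06, SE 0.61). H3c14 had 0.000601 and less than that in WT against 192 and 15.8 in Msx2-KO libraries. Of its 50-base stretches 34.7% also occur in the member H3c15, and all occur in the annotated transcript of Gm20634. The sum of H3c13, H3c14 and H3c15, the H3 genes of chromosome 3, was 865 and 623 in WT against 192 and 16.5 in Msx2-KO libraries, so the sum went the other way from H3c14 alone. H4c9 had 2.18 and 27.8 in WT against 73.9 and 28.3 in Msx2-KO libraries, with the nearest values of the genotypes almost equal. None of the 4 was called by limma.

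By the stem-loop annotation, both Msx2-KO EpdSC libraries were below both WT libraries in 38 of the 41 members with a match (background 44.5%). They were above in 2 of these, H3c14 and H4c9 (background 27.8%). They were below in 5 of the 8 with a UTR and no match (background 44.5%), and above in 2, H1f0 and H2bc21 (background 27.8%). These 8 are too few to set apart from the shares of all genes. All 13 members without a UTR model in the EpdSC table were below (background 44.5%). Of the members above, H1f0, H2bc21 and H3c14 have annotated 3′ UTRs of 1198, 2192 and 1213 bases and H4c9 of 376, while H2ac18, at 0 and 3.91, has 109. Length alone did not separate them: H1f3, listed at 0 in 1 Msx2-KO library and at 49.9 in the other, has the longest, of 4931 bases. These are counts over genes that share sequence, and no test was made.

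Between the cell types, 27 of the 58 members in both tables had both Msx2-KO libraries above WT in HFSCs and below WT in EpdSCs, against 7.07% of the 15337 genes in both tables. The opposite pattern was seen in 2 members, H2bc21 and H4c9. H1f0 was the single member higher in both cell types, and 4 were lower in both, which were H2bc13, H2bc14, H4c2 and H4c3. The shares of all genes with these 3 patterns were not counted. In HFSCs H2bc21, H4c9, H2bc13 and H2bc14 did not pass the filter, with 1.18 to 9 estimated counts per WT library and 0 in both Msx2-KO libraries. The 2 comparisons share no library. The difference between the cell types was not tested, because the tables are in different units.

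**Figure D3:**
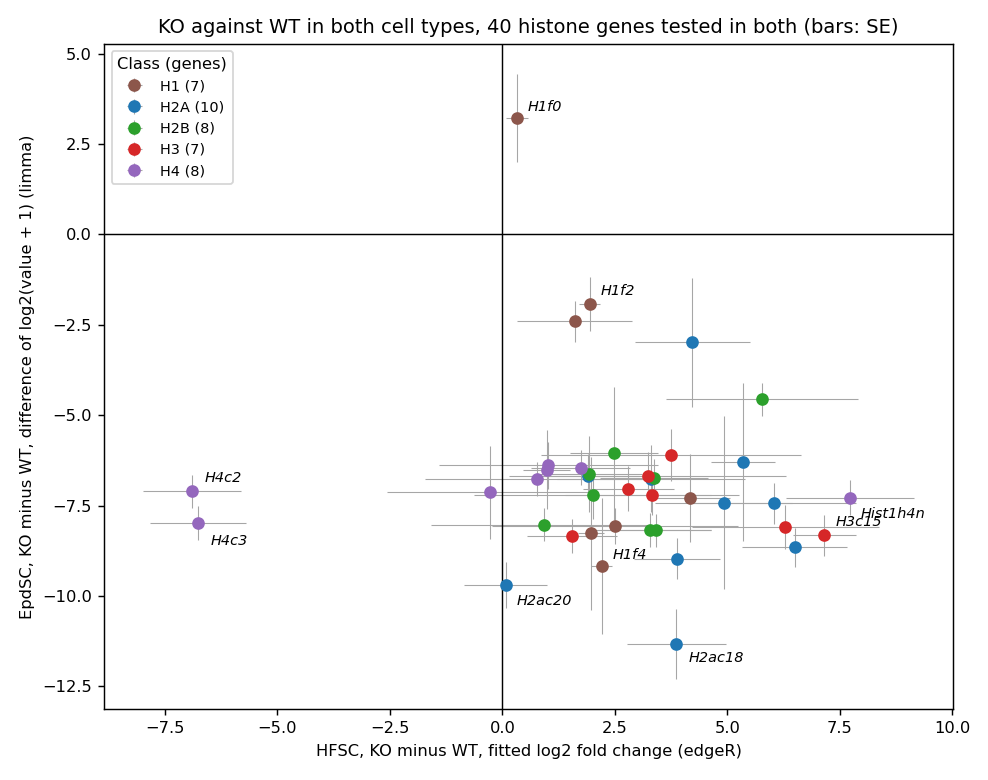
Fitted log2 fold change of Msx2-KO against WT in HFSCs (x axis, edgeR) against the difference of log2(value + 1) in EpdSCs (y axis, limma) for the 40 members tested in both, coloured by class, with bars of 1 SE. Most points lie at lower right, H1f0 alone lies above 0 on the y axis, and H4c2 and H4c3 lie at far left, where values in both Msx2-KO HFSC libraries are 0 and the fitted fold depends on the prior count.

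Replacement histones, made outside S phase, summed to 783 and 650.2 CPM in WT and 1307 and 966 in Msx2-KO HFSCs, and to 1499.85 and 1463 against 10543 and 6669 in EpdSCs. In EpdSCs 2 of the 11 listed were called higher (background 1.57%) and 0 lower (background 7.78%). H3f3b, a source of the H3 variant deposited throughout the cell cycle, had 4607 and 4740 normalized counts in WT against 38079 and 33515 in Msx2-KO libraries (difference 2.93, SE 0.46), and H2az2 had 251 and 314 against 10986 and 5184. H3f3a had 6441 and 6014 against 115364 and 34408, and H2az1 201 and 126 against 4954 and 1555, with groups apart but neither called. H2aj, not called, had the order of the cluster genes, at 1679 and 1377 against 93.0 and 291. In HFSCs 0 of 11 were called by edgeR, and 3 were higher at an unadjusted p under 0.05 (background 5.3%). DESeq2 and limma-trend each called 1 higher (background 2.29% and 1.1%). H3f3b overlapped there, at 1108 and 720.0 in WT against 1236 and 649 in Msx2-KO libraries. H1f0 and H1f10 are in this list as well as in the family.

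Genes that make and process histone mRNA did not pass the test in either cell type. Slbp, the stem-loop binding protein, had 49.0 and 111 normalized counts in WT HFSCs against 50.7 and 208 in those labelled Msx2-KO, and 455 and 511 against 1546 and 803 in EpdSCs, so its groups overlapped in HFSCs and were apart in EpdSCs. Npat, the coactivator of histone gene transcription, overlapped in both cell types, at 113 and 115 against 127 and 37.7 in HFSCs and 300.03 and 337 against 411 and 189 in EpdSCs. Casp8ap2, which works with Npat, had 211 and 283 against 132 and 140.3 in HFSCs and 612 and 672 against 651 and 156 in EpdSCs. Of 14 genes of this list tested in HFSCs 0 were called by edgeR, DESeq2 or limma-trend and 0 had an unadjusted p under 0.05. In EpdSCs 0 of 15 were called. Both Msx2-KO libraries were above both WT libraries in 3 of them (background 27.8%) and below both in 5 (background 44.5%). The next 2 genes were named after their values were seen. Sympk, a scaffold of the 3′ end processing complex, had 1320.3 and 1329.8 against 0 and 77.5. Ncbp1, the large subunit of the cap binding complex, went the other way, at 682 and 635 against 10699 and 3659.8. Among histone chaperones, which carry histones to chromatin, 0 of 10 were called by edgeR in HFSCs, and 1 was lower at an unadjusted p under 0.05 (background 12.8%). DESeq2 called 0 and limma-trend 1 lower (background 8.66%). In EpdSCs Nap1l4 alone of 11 was called, higher (background 1.57%) at 1064 and 986 against 28114 and 12767.

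Of the genes of dividing cells, the mitosis list had the clearer difference in HFSCs. The 12 listed mitosis genes summed to 102 and 94.8 CPM in WT and 1309 and 836 in Msx2-KO HFSCs. Mki67, the proliferation marker, had 155 and 239 normalized counts in WT against 2567 and 1447, and Top2a, which untangles replicated DNA, had 80.1 and 61.3 against 437 and 544. By edgeR 0 of 11 tested were called and 7 were higher at an unadjusted p under 0.05 (background 5.3%). DESeq2 called 5 higher (background 2.29%) and limma-trend 2 (background 1.1%), and both Msx2-KO libraries were higher in 8 (background 17.5%). The 37 S phase and replication genes listed summed to 614 and 464 against 1213 and 807 CPM, with 0 of 33 called by edgeR. At an unadjusted p under 0.05, 2 were higher (background 5.3%) and 2 lower (background 12.8%). None was called by DESeq2, and 2 were called lower by limma-trend (background 8.66%). Pcna, the sliding clamp of the replication fork, had 44.1 and 55.4 against 19.3 and 226, so its groups overlapped, and Ccne2 had 30.2 and 13.8 in WT and 0 in both Msx2-KO libraries. Cdc6, Gins3 and Rfc4 were at 0 in both Msx2-KO libraries as well.

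In EpdSCs the sum of the mitosis list was higher in the Msx2-KO libraries, in which the histone genes were low. The mitosis genes summed to 326 and 273 CPM in WT against 448 and 345 in Msx2-KO libraries, and 3 of 12 were called higher (background 1.57%). These were Cdk1 at 53.1 and 56.9 against 1455 and 655 normalized counts, Ccnb2 at 63.9 and 49.3 against 439 and 479, and Aurkb at 42.2 and 54.1 against 362 and 353. Mki67 was the exception, at 2517 and 2055 in WT against 7.64 and 294, and Top2a overlapped, at 743 and 543 against 544 and 558. The S phase genes summed to 889 and 997 against 1278 and 1549 CPM. Of the 38, Pold1, the catalytic subunit of DNA polymerase delta, was called lower (background 7.78%) and 0 higher (background 1.57%). Pcna had 471 and 584 against 2776 and 1091, and Ccne2 98.6 and 75.6 against 75.3 and 83.4. The S phase sum rested on Mcm7, a subunit of the replicative helicase named after its values were seen, at 54.5 and 62.9 against 344 and 375 CPM: without it the sums were 835 and 934 in WT against 934 and 1174, and the groups overlapped.

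Short nuclear and nucleolar RNAs that are known to lack poly(A) tails were low in the same EpdSC libraries as the histone genes. Rn7sk, the RNA that restrains the elongation factor P-TEFb, had 190271 and 245493 normalized counts in WT against 383 and 3051 in Msx2-KO libraries. Rpph1, the RNA of ribonuclease P, had 98669 and 98990 against 0 and 1.35, and Terc, the telomerase RNA, 72.6 and 99.6 against 0 and 0.674. Rmrp, the RNA of ribonuclease MRP, had 36604 and 34354 against 6400 and 1998. These 4 genes summed to 27039 and 31903 CPM in WT against 290 and 393 in Msx2-KO libraries, and 3 of the 4, all but Rmrp, were called lower (background 7.78%). In HFSCs the 8 listed RNAs summed to 9801 and 6853 against 13240 and 26517 CPM, with 0 of 5 called by edgeR. At an unadjusted p under 0.05, 2 were higher (background 5.3%) and 1 lower (background 12.8%). DESeq2 called 2 higher (background 2.29%) and limma-trend 1 lower (background 8.66%). There Rmrp had 803 and 2380 normalized counts in WT against 5392 and 15860 in Msx2-KO libraries and Rpph1 4367 and 1575 against 11341 and 28949, while Rn7sk, at 25549 and 20867 against 25008 and 44237, overlapped. The part of RNAs without poly(A) tails in the histone result was not tested.

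**Figure D4:**
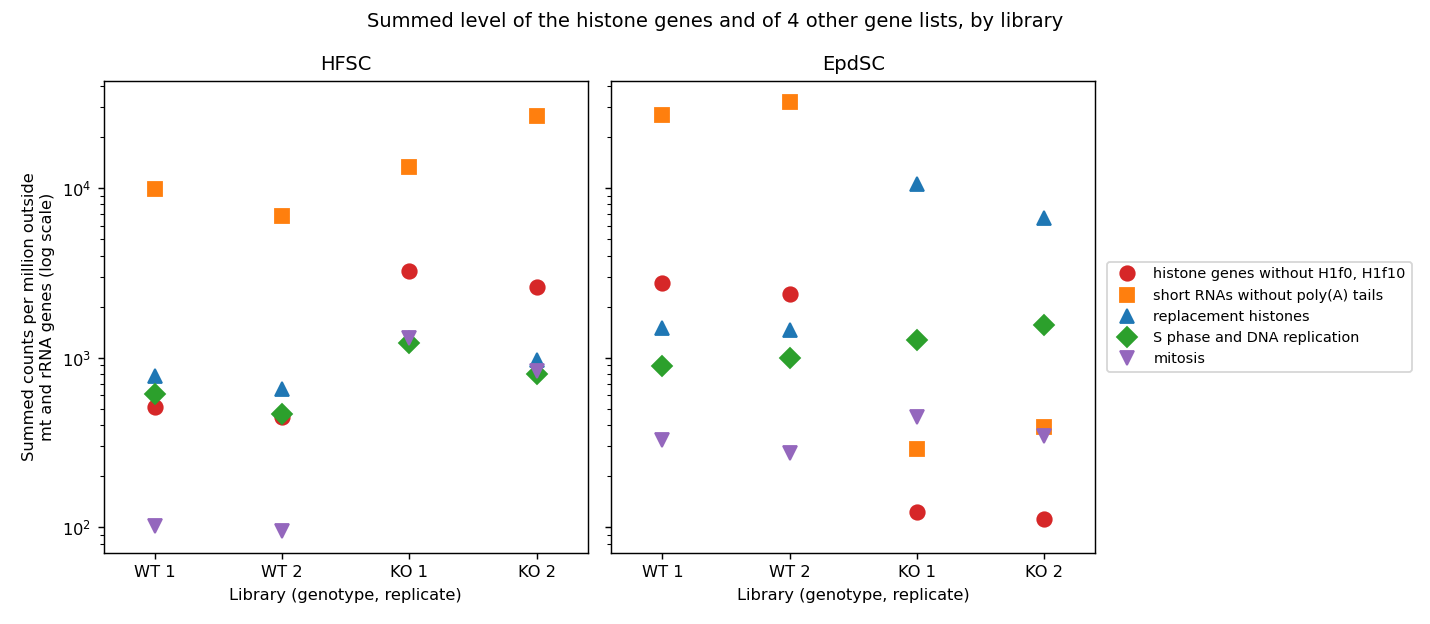
Summed level of the cluster histone genes and of 4 other gene lists in each library (x axis: genotype and replicate), in CPM outside mitochondrial and ribosomal RNA genes on a log axis; each point is 1 library. In EpdSCs the histone genes and the short RNAs are low in the same 2 libraries, at 112 to 123 and at 290 to 393. The S phase (through Mcm7), mitosis and replacement histone sums there are higher in both Msx2-KO libraries. In HFSCs all plotted sums are higher in both Msx2-KO libraries.

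Cell type markers also differed between the groups. Cd34, the HFSC sort marker, had 262 to 957 CPM in the 4 HFSC libraries and was not listed in the EpdSC table, and Lhx2 had 249 to 483 in HFSCs and at most 3.19 in EpdSCs. The 6 markers of suprabasal epidermis summed to 331 and 334 CPM in WT HFSCs against 1423 and 5162 in Msx2-KO HFSCs, and to 22556 and 16268 in WT EpdSCs against 1822 and 5619 in Msx2-KO EpdSCs. Their sum was thus higher in the same group of each cell type as the histone genes, with Krt1 and Krt10 in all 8 libraries and Lor at 0 in 3 of the HFSC libraries. Basal epidermis markers summed to 13178 to 15118 against 8597 to 9533 in HFSCs, and to 19803 to 23956 against 25821 to 38883 in EpdSCs. HFSC markers summed to 10718 to 12835 against 6821 to 6843 in HFSCs, and to 7552 to 9225 against 12946 to 16645 in EpdSCs, where Krt15 made up most of them. Other lineages were low, at 22.4 to 108 CPM for 3 of 6 fibroblast markers in HFSCs, none of which was listed in EpdSCs, and at 7.63 to 39.1 and 0 to 44.5 for immune markers. Endothelial markers summed to 7.34 to 19.3 and 0.399 to 1.42, and melanocyte markers to 89.7 to 375 in HFSCs and 1.03 to 18.5 in EpdSCs, and erythrocyte markers were listed in neither table. The part of these markers in the histone result was not tested.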

How the data were processed

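Bulk RNA of sorted HFSCs and EpdSCs was measured in 8 libraries, 2 per genotype and cell type. Libraries came from a stranded SMARTer total RNA kit and, per the labels and methods, were aligned with STAR 2.7.3a in Partek Flow to GRCm38/mm10 and counted on GENCODE M25. Strand use by the counter is not given in the sources used here. The HFSC table, as deposited, holds estimated counts with no scaling, rounded here to whole numbers. For EpdSCs the authors deposited a normalized signal, estimated counts divided by 1 factor per library, of which 72.8% to 82.4% of values under 1000 were whole multiples of a single count, within 0.01. These values were not treated as counts. The authors' own comparisons of the genotypes (fold changes and p-values) were not used. Of the columns with values per library, 0 were left unmapped.

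After filterByExpr and TMM, HFSC counts went into edgeR 4.0.16 (glmQLFit, glmQLFTest). They are printed as counts scaled to 6119092 per library. For EpdSCs, limma 3.58.1 was fitted to log2(value + 1) of all listed genes. A call was a Benjamini-Hochberg adjusted p under 0.05 over all genes and a fold over 2. Gene sums were CPM outside mitochondrial and ribosomal RNA genes. R 4.3.3 and Python 3.11.15 were used, and the fits were tested on simulated data. Sharing of 50-base stretches was read on both strands of GENCODE M21 transcripts, an earlier release of the same build.

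The members, gene lists and named genes were chosen with earlier results of these data known. Named members were H2ac18, the 12 with the highest mean in each cell type, up to 10 called by smallest p and the 3 largest rises and 3 largest falls with a mean of at least 50, and others were named after their values were seen. Alternatives were DESeq2 1.42.0, limma-trend (prior count 3), other scalings, filters and pseudocounts, a replicate block and each library left out.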

Additional observations from a re-analysis of the deposited data

Results flagged for a closer look

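Opposite orders of the genotypes in the 2 cell types drew attention to the histone genes. Both Msx2-KO libraries lay above both WT libraries in HFSCs and below both in EpdSCs for 27 of the 58 members in both tables, against 7.07% of the 15337 genes in both. The class sums did the same in every library: Msx2-KO over WT in HFSCs was 4.53 for the cluster H1 genes, 13.7 for H2A, 7.27 for H2B, 16.1 for H3 and 2.82 for H4, and WT over Msx2-KO in EpdSCs was 11.2, 149, 13.3, 38.7 and 60.6 in the same order. The difference between the cell types was not tested. Groups of 2 libraries are too small to look for single libraries that stand apart.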

How the results depend on the processing

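In HFSCs the number of members called higher was 0 with edgeR and 15 with DESeq2, 1 with library totals and 5 with limma-trend, which also called 2 lower. Leaving out 1 library gave 4 to 33 higher and 0 to 6 lower. The median log2 fold change of members was 2.65, and it was 1.86 with library totals, 1.92 over the 12 members with at least 10 counts in every library, 1.94 with limma-trend and 2.60 to 3.58 with 1 library left out. Relative to the median of all genes, which library totals moved from -0.14 to -1.002, the members stood at 2.79 with TMM and 2.86 with library totals. H1f0 turned to -0.49 with library totals. The log2 ratio of summed members was 2.32, or 1.4997 as a share of all counts and 2.56 without H1f0 and H1f10. In EpdSCs 48 members were called lower, and 0 to 55 with 1 library left out, when 0 to 3 were called higher. The median difference was -6.76, and it was -9.35 with a pseudocount of 0.1, -3.95 with 10, -7.08 with totals outside mitochondrial and ribosomal RNA genes and -7.03 to -6.60 with 1 library left out. The log2 ratio of summed members was 0.38, carried by H1f0, and reversed to -0.16 as a share of all values, to -0.45 as a share outside mitochondrial and ribosomal RNA genes and to -3.84 without H1f0 and H1f10. Replicate numbers did not pair the libraries: deviations of same-numbered libraries correlated at -0.04 in HFSCs and -0.02 in EpdSCs over 2 pairs. With the replicate block 9 HFSC members were called higher, with a median of 2.17, and 1 EpdSC member higher. The share of all genes called with that block is not given here. Of the other comparisons of named genes with an alternative, 265 kept their direction and call, 79 gained a call, 35 lost it and 1 reversed. These numbers include the fits with 1 library left out, so the gained and lost calls are not read further. The causes were not tested. In HFSCs 20 of 60 members did not pass the filter on low counts and were not tested.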
